A study of Mus musculus with 10 samples.

Results

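The genes described here are 47 mouse genes of the cell division cycle: the cyclins and their kinases, the factors that license replication origins, the enzymes of S phase nucleotide supply, and the regulators and machinery of mitosis. They were chosen by gene symbol, from a given list, out of 25277 symbols in a table of RNA sequencing counts, and all 47 were in it. Enough reads for a test were found for 13464 genes, among them 40 of the members. The members without enough reads were Ccne1, Cdc6, Plk1, Aurkb, Bub1b, E2f1 and Foxm1.

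The counts come from 10 libraries of mouse lung cells, which the labels call premalignant, with about 500 cells lysed for each library and the RNA copied and amplified by a modified SMART-Seq2 protocol. The libraries fall into 3 genotypes of APE1, an endonuclease that acts in base excision repair and is encoded by Apex1. The flox/N211A genotype has 1 allele that carries the N211A mutation beside a flox allele and has 3 libraries. The flox/flox genotype has 2 flox alleles and has 3 libraries. The flox/+ genotype has 1 flox allele beside a wild-type one and has 4 libraries. A flox allele is flanked by loxP sites and is removed where the Cre recombinase acts. All 3 genotypes had received an adenovirus carrying Cre 12 wk before, so the libraries of flox/+ are treated controls. The promoter that drives Cre, the strain, the age of the animals and the part of Apex1 that Cre removes are not given in the sources read here. The labels do not say that the libraries of a genotype came from separate animals, so p-values measure only the spread between these samples, which may be technical.

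In a dividing cell, D-type cyclins with Cdk4 and Cdk6, and then cyclin E with Cdk2, phosphorylate the retinoblastoma family and release E2F factors, which switch on genes of DNA replication. Cdc6 and Cdt1 load the MCM helicase onto origins before S phase, geminin blocks reloading, and thymidylate synthase and ribonucleotide reductase supply nucleotides. Cyclins A and B with Cdk1 then drive mitosis, in which spindle and kinetochore proteins part the chromosomes and the anaphase-promoting complex (APC/C) ends the phase. Most cells of the adult lung epithelium are quiescent, and club and alveolar type II cells can re-enter the cycle.

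Total counts lay between 8955368 and 17070817 in flox/N211A, between 10672334 and 53678659 in flox/flox and between 13221853 and 17707731 in flox/+. Among the flox/flox libraries, replicates 2 and 3 were unlike the others: in replicate 2, 34.2% of the tested genes had no read, and replicate 3 was the deepest library. Levels are given as CPM, the reads of a gene scaled to a common library total, and 3 counts in a library, the limit that a count of 0 allows, came to between 0.0747 and 0.282 CPM, for counting error only. Apex1 itself stood at 7.86, 12.9 and 6.45 CPM in flox/N211A, at 6.02, 0 and 0.573 CPM in flox/flox, and at 4.12, 15.9, 35.9 and 54.1 CPM in flox/+ (replicates in order, as in every list of values below). Flox/flox replicate 1 thus lay above flox/+ replicate 1, and the counts of Apex1 include 61.7% of exon bases shared with Pip4p1 on the other strand. A library held more Xist than Y-linked reads in 3 of 3 flox/N211A, 2 of 3 flox/flox and 2 of 4 flox/+ libraries, which leaves the sexes unevenly spread over genotypes.

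The labelled tissue was checked against its markers. Summed over 8 alveolar type II genes, the level lay between 46396 and 53249 CPM in flox/N211A, between 21830 and 30139 CPM in flox/flox and between 46596 and 179722 CPM in flox/+. The 5 club cell genes summed to between 31054 and 252805 CPM over the libraries, while 12 leukocyte genes summed to at most 45.1 CPM in any library. That highest sum was in flox/N211A replicate 3, where 7 of the 12 had at least 3 counts, the most of any library. Among them were Cd68 at 15.1 CPM, Itgam at 6.66 CPM and Ptprc at 5.47 CPM. Cd3e was read in that library only, at 1.26 CPM, and Adgre1 was at most 0.435 CPM in any library. Cd79a reached 40.6 CPM in flox/flox replicate 2, Cd68 23.8 CPM in flox/+ replicate 4 and Fcer1g 15.7 CPM in flox/flox replicate 3. Such levels are not small beside those of many members below. Other lists were read as well: 6 erythroid genes summed to 0.841 to 2793 CPM in flox/N211A, 86.1 to 2948 CPM in flox/flox and 45.9 to 3016 CPM in flox/+. Hba-a1 and Hba-a2 of this list had the same level in every library, so the same reads may be counted for both. The 6 endothelial genes summed to 42.3 to 116 CPM in flox/N211A, 3.98 to 87.1 CPM in flox/flox and 9.87 to 61.8 CPM in flox/+. Summed over 6 fibroblast genes, flox/N211A had 62.4, 81.9 and 2.80 CPM, flox/flox at most 26.1 CPM and flox/+ at most 19.7 CPM, so flox/N211A replicates 1 and 2 stood above all other libraries. The part of these lists in the results below was not tested. A list of 8 genes of ciliated cells summed to between 995 and 1689 CPM in flox/N211A, between 2188 and 5082 CPM in flox/flox and between 467 and 1559 CPM in flox/+. The alveolar type II sum was thus lower, and the ciliated sum higher, in every flox/flox library than in every flox/+ library. Not every gene followed its sum, and Sftpc made up most of the alveolar type II sum. Sftpb overlapped, at 1275, 808 and 4793 CPM in flox/flox and 1761, 584, 907 and 990 CPM in flox/+. Abca3, Lamp3, Etv5 and Napsa also overlapped, as did Dnah5, Tekt1 and Cfap43 of the ciliated list. Deuterosomal cells are postmitotic and use cell cycle genes to make centrioles. A list of 8 of their genes summed to 76.8, 92.8 and 119 CPM in flox/N211A, 208, 112 and 173 CPM in flox/flox, and 69.4, 103, 124 and 30.1 CPM in flox/+. The genotypes overlapped, Myb and Deup1 made up most of these sums, and the part of such cells in the members' reads was not tested. In libraries of many cells, fewer cells of a type and less RNA per cell cannot be told apart.

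The members were read at low levels. The median over the 47 members of the mean CPM was 5.20, against 19.5 for the genes tested, and 23 members averaged under 5 CPM. Only 7 members had at least 3 counts in all 10 libraries (Ccnd1, Ccnd3, Cdk4, Cdk6, Ccna2, Kif23 and Stmn1), 14 had them in 8 or 9 libraries, 23 in 3 to 7 and 3 in 1 or 2. Per kilobase of exon, where levels can be set side by side between genes, cyclin D1 (Ccnd1) came first at a mean of 55.4 CPM per kb. It was followed by the microtubule destabilizer stathmin (Stmn1) at 35.6, Cdk4 at 25.4, geminin (Gmnn) at 11.1, cyclin D3 (Ccnd3) at 8.92 and the helicase subunit Mcm4 at 7.20. The proliferation marker Mki67 averaged 0.524 CPM per kb and topoisomerase II alpha (Top2a) 0.577. Among the mitotic roles, cyclin A2 (Ccna2) at 4.79 and the motor Kif23 at 4.52 CPM per kb lay above cyclin E2 (Ccne2) at 3.42 and cyclin D2 (Ccnd2) at 3.39, so the order does not follow the phases of the cycle.

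Single libraries carried many of the reads of the rare members. In 27 of the 47 members, 1 library stood more than 10 times above the median of the other 9. Where that median is 0, as for Plk1 and Aurkb, any read passes this rule. The share over all genes was not counted, so the number does not set the members apart. The spindle checkpoint kinase Bub1b had 52.7 CPM in flox/+ replicate 3, and no other library passed 2.79 CPM. The chromosomal passenger kinase Aurkb had 13.5 CPM in flox/+ replicate 4 and at most 0.224 CPM elsewhere. The mitotic kinase Plk1 had 8.62 CPM in flox/N211A replicate 3, at most 0.813 CPM in the other flox/N211A libraries, at most 0.498 CPM in flox/flox and no read in any flox/+ library.

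The libraries also differed in how many members they held. At least 3 counts were found for 36, 32 and 44 members in the flox/N211A libraries, for 21, 14 and 44 in the flox/flox libraries, and for 31, 39, 19 and 36 in the flox/+ libraries. At a fixed level of 10 CPM, which depends less on depth, the numbers were 17, 13 and 17 in flox/N211A, 11, 8 and 11 in flox/flox, and 13, 16, 11 and 14 in flox/+. Flox/flox replicate 2 and flox/+ replicate 3 therefore held the fewest members at 3 counts, and these were also the libraries with the largest shares of tested genes without a read (34.2% and 16.6%). That share was 3.44%, 10.4% and 2.82% in flox/N211A, 15.3%, 34.2% and 10.4% in flox/flox, and 9.32%, 2.86%, 16.6% and 8.53% in flox/+. Shares of all genes at 3 counts or at 10 CPM were not counted, so these numbers do not set the members apart. Flox/N211A replicate 3 held the highest level of 8 members, among them Top2a, Plk1, Tpx2, Hmmr, Ccnb2 and Cdt1. The share of all tested genes that were highest there was 3.66%. The 8 include Ccne1 and Plk1, which were not tested, so the count and the share are not like for like. That library also had the smallest share of tested genes without a read (2.82%), and the part of this in the count was not tested. Flox/flox replicate 3 held the highest level of 28.4% of all tested genes and of 5 members, Ccnb1, Ccnd3, Cdk4, Mcm4 and Nusap1.

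**Figure D1:**
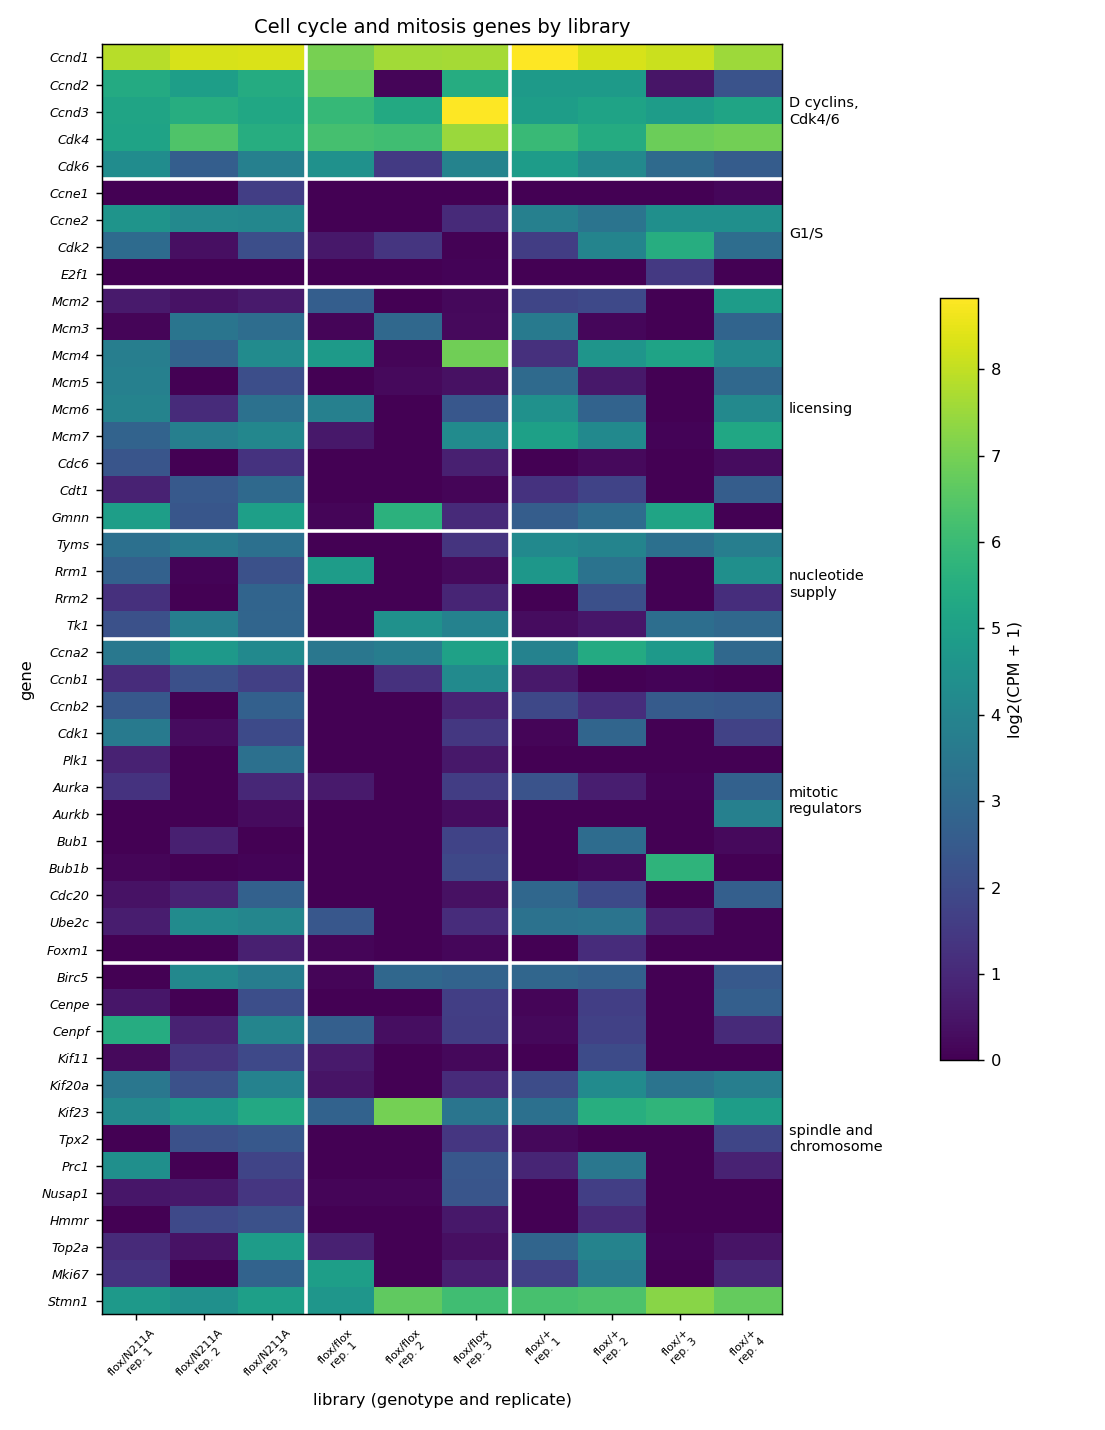
Levels of the 47 members in each library as log2(CPM + 1), with genes in rows by role and libraries in columns by genotype; dark cells are at or near 0. Ccnd1, Ccnd3, Cdk4 and Stmn1 are read in every library, Ccne2 and Tyms are near 0 in the 3 flox/flox columns, and many rows of mitotic genes are bright in a single column.

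The genotypes give 3 comparisons, which share libraries with each other. With edgeR's quasi-likelihood test and Benjamini-Hochberg adjustment over the 13464 genes, no gene had an adjusted p under 0.05 in any of them, and none of the 40 members tested did (0% of all genes tested). At an unadjusted p under 0.05, flox/N211A against flox/+ gave 1 member with a higher level (Cenpf; 0.728% of all tested genes were higher at that p) and 1 with a lower level (Stmn1; 0.706%). In flox/flox against flox/+ these were 2 higher members (Ccnb1 and Ccnd3; 5.73%) and 4 lower ones (Ccne2, Cdk2, Kif20a and Tyms; 8.7%). They were 2 higher members (Ccne2 and Cdt1; 7.63%) and 1 lower one (Ccnd3; 4.42%) in flox/N211A against flox/flox. Out of 40 members, these counts are near the shares of all genes.

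A second count takes the members whose libraries do not overlap between the genotypes. Between flox/N211A and flox/+ there were 3 higher (Ccnb1, Ccnd2 and Ccnd3; 3.51% of tested genes) and 1 lower (Stmn1; 2.64%). Between flox/flox and flox/+ there were 1 higher (Ccnd3; 3.44%) and 5 lower (Ccnb2, Ccne2, Cdk2, Kif20a and Tyms; 7.19%). Between flox/N211A and flox/flox there were 6 higher (Ccne2, Ccnd1, Cdc20, Cdt1, Kif20a and Tyms; 13%) and 0 lower (5.61%). Read against the shares of all genes, these counts do not set the members apart. The lower members of flox/flox include genes of the G1/S transition (Ccne2 and Cdk2), of S phase (Tyms) and of mitosis (Kif20a and Ccnb2), and 3 of the 5 (Ccne2, Kif20a and Tyms) did not overlap with flox/N211A either.

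DESeq2 on the same counts passed more genes at an adjusted p under 0.05. It called 5 members in flox/flox against flox/+: Ccnd3 higher (1.77% of the genes to which it gave an adjusted p), and Ccne2, Cdk2, Kif20a and Tyms lower (6.46%). It called 3 in flox/N211A against flox/flox, Ccne2, Kif20a and Tyms, all higher (4.52%; 0 lower, 0.714%). It called 0 members in flox/N211A against flox/+ (0.0706% of genes higher and 0.0628% lower), where 2 members had an unadjusted p under 0.05 by DESeq2. Of the members tested, 2 had no adjusted p from DESeq2 in each comparison.

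Over all 47 members, the median difference of mean log2 CPM (prior count 2) was 0.31 in flox/N211A against flox/+, with 26 members above 0, against 0.15 for all genes tested and 0.05 for all genes with a count. It was -0.77 in flox/flox against flox/+, with 11 members above 0, against -0.62 for all genes tested and -0.14 for all genes with a count. It was 1.51 in flox/N211A against flox/flox, with 39 members above 0, against 0.85 and 0.34. Over the 40 members tested alone, the set that is like the genes tested, the medians in the same order were 0.32, -0.82 and 1.85. How far the members' shift is shared by all genes thus depends on which genes it is set against: it lies near that of the genes tested in flox/flox against flox/+ and further from that of all genes with a count. By edgeR's fold changes, where the medians of all genes were -0.045, 0.056 and -0.11 for the comparisons in the same order, those of the tested members were 0.10, -0.88 and 0.83. Fold changes above 0 were found for 20 of the 40 members tested in flox/N211A against flox/+ (47.7% of all genes), for 12 in flox/flox against flox/+ (51.3%) and for 24 in flox/N211A against flox/flox (47.1%). The medians of all genes thus differ in sign between the measures under TMM scaling, whereas with plain totals edgeR's were 0.05, -0.07 and 0.11, of the same sign as the differences of means. The members' median in flox/N211A against flox/+ itself turned to -0.21 without flox/N211A replicate 3 and to -0.05 under a filter of 10 CPM in 3 libraries, and was 0 without flox/+ replicate 3.

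**Figure D2:**
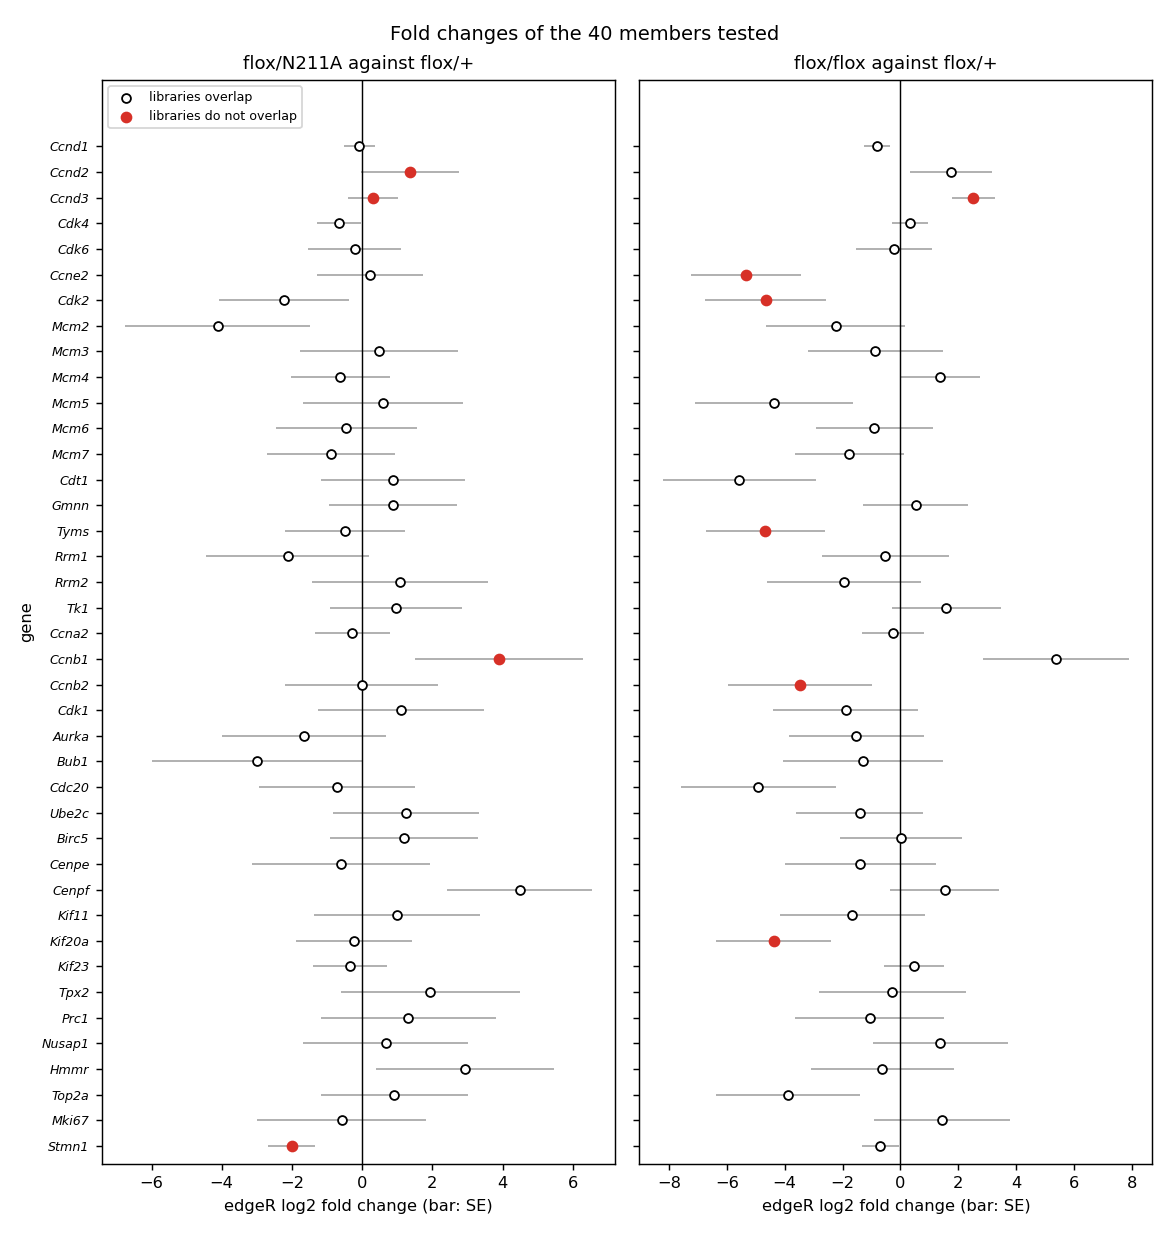
edgeR log2 fold changes with their standard errors for the 40 members tested, for flox/N211A against flox/+ on the left and flox/flox against flox/+ on the right; filled red points are members whose libraries do not overlap between the genotypes. Ccne2, Cdk2, Tyms, Kif20a and Ccnb2 stand to the left of 0 in the right panel and Ccnd3 to the right, while Stmn1 stands to the left in the left panel.

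Promoter bases are shown for some of the members on which the comparisons turn, because the title of the study concerns DNA G-quadruplexes, structures that G-rich strands can form. They are the 250 bases before the annotated start, 5′ to 3′ on the gene's strand, from RefSeq on GRCm38.p6. Capitals mark matches, on either strand, to a G-quadruplex motif (4 runs of at least 3 G with 1 to 7 bases between them, or the same in C), to the CCAAT box (CCAAT), to the cell cycle homology region (CHR), which reads TTTGAA or, in a variant, TTCGAA, or to an E2F site, and matches can overlap. The E2F sites searched read TTCCCGC, with the variant TTGGCGC, the variant TTCGCGC and the variant TTGCCGC. Cdk2, Tyms and Cdt1 had their lowest mean CPM in flox/flox, and Ccnd3, with its 2 listed starts, had its highest there. Top2a was added as a gene of mitosis. Its mean was also lowest in flox/flox (0.351 CPM, against 9.94 in flox/N211A and 5.27 in flox/+), with overlap between the genotypes in every comparison. No promoter was listed for Ccne2, Kif20a or Stmn1, and that of Ccnb2, which held no G-quadruplex motif, is not printed.
Cdk2, chr10:128705052-128705301, minus strand: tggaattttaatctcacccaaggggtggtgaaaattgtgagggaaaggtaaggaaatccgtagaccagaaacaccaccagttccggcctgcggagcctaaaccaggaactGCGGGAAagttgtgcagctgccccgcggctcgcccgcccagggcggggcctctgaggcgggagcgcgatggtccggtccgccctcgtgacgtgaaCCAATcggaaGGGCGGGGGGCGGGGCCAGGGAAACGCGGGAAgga
Tyms, chr5:30073626-30073875, minus strand: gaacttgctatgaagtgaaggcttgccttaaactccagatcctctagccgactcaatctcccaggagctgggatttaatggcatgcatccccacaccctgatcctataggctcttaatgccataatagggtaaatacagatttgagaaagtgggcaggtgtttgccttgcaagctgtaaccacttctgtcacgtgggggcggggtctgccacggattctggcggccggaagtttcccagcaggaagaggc
Cdt1, chr8:122567765-122568014, plus strand: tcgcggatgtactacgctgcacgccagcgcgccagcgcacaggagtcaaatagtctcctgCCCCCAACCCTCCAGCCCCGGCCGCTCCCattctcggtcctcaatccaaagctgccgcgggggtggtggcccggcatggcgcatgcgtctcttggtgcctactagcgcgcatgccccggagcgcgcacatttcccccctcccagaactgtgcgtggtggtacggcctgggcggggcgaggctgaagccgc
Ccnd3, chr17:47504801-47505050, plus strand: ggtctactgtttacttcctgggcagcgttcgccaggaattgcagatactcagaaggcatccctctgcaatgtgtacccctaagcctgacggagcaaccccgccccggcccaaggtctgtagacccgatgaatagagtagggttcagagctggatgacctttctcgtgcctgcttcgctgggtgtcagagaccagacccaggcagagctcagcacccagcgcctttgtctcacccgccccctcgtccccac
Ccnd3, chr17:47593217-47593466, plus strand: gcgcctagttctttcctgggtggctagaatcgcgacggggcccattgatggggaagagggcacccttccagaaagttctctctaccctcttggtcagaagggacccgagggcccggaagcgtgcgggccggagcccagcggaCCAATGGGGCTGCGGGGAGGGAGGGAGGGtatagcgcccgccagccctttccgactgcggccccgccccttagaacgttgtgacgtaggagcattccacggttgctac
Top2a, chr11:99024190-99024439, minus strand: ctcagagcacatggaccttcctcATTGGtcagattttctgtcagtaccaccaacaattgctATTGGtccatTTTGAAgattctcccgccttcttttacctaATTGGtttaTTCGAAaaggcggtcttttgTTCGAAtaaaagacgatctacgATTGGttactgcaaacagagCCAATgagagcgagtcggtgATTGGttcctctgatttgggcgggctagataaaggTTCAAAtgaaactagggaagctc
In these bases Cdk2 held a G-quadruplex motif, a CCAAT box and E2F sites, Cdt1 held a G-quadruplex motif that reads as runs of C on the printed strand, the second Ccnd3 promoter held a G-quadruplex motif and a CCAAT box, and Top2a held CCAAT boxes and CHR elements. Tyms and the first Ccnd3 promoter held no match. Promoters were listed for 36 members, 39 in all, and the counts that follow are over 300 bases, which add the 50 after the start. A G-quadruplex motif was in 38.5% of the members' promoters and in 18.6% of all 32851 in the table. A CCAAT box was in 71.8% against 37.4%, a CHR in 46.2% against 19.2%, and an E2F site in 35.9% against 9.57%. All 4 motifs were thus more frequent among the members, without a test, and a match is not a site of binding or folding.

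Among the D-type cyclins and their kinases, none of the 5 members passed the test, and Ccnd3 had the smallest adjusted p in flox/flox against flox/+. Cyclin D1 (Ccnd1; chromosome 7, 144929931 to 144939925, GRCm38) stood at 235, 312 and 320 CPM in flox/N211A, at 127, 195 and 199 CPM in flox/flox, and at 452, 312, 275 and 184 CPM in flox/+. All flox/flox libraries lay below all flox/N211A libraries, and the lowest flox/+ library lay among those of flox/flox. Its log2 fold change came to -0.08 (SE 0.44, edgeR adjusted p = 1) in flox/N211A against flox/+, -0.82 (SE 0.45, adjusted p = 0.413) in flox/flox against flox/+, and 0.74 (SE 0.47, adjusted p = 0.548) in flox/N211A against flox/flox. The difference of mean log2 CPM of Ccnd1 in flox/N211A against flox/+ was -0.02 with TMM scaling and 0.08 with plain totals, so its sign depends on the scaling. Ccnd1 shares 23.4% of its exon bases with LTO1 on the other strand, whose values are given below.

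Cyclin D3 (Ccnd3; chromosome 17, 47505051 to 47599691), whose promoters are shown above, stood at 35.0, 43.7 and 37.5 CPM in flox/N211A, at 58.6, 40.2 and 442 CPM in flox/flox, and at 28.8, 33.7, 28.5 and 34.2 CPM in flox/+. Every flox/flox and every flox/N211A library lay above every flox/+ library, and flox/flox replicate 3 lay far above all others. Its log2 fold change came to 2.53 (SE 0.74, edgeR adjusted p = 0.237) in flox/flox against flox/+ and -2.22 (SE 0.81, adjusted p = 0.386) in flox/N211A against flox/flox. Without flox/flox replicate 3 these were 0.68 and -0.36, so that 1 library carries most of both values. Without flox/flox replicate 1 the first was 2.97 at an edgeR adjusted p of 0.0461, under the threshold. Against flox/+, the value of flox/N211A was 0.31 (SE 0.72, adjusted p = 1). Ciliated genes were also highest in flox/flox replicate 3, and their part in this result was not tested.

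Cyclin D2 (Ccnd2) stood at 40.8, 29.9 and 42.2 CPM in flox/N211A, at 105, 0.0866 and 42.7 CPM in flox/flox, and at 27.0, 27.1, 0.397 and 3.83 CPM in flox/+. All flox/N211A libraries lay above all flox/+ libraries, by little in the nearest pair, and the flox/flox libraries spanned the whole range. The kinase Cdk4 stood at 33.5, 83.5 and 44.7 CPM in flox/N211A, at 73.9, 68.0 and 180 CPM in flox/flox and at 61.5, 42.4, 115 and 122 CPM in flox/+, with overlap between all genotypes and fold changes of -0.66 (SE 0.63), 0.33 (SE 0.61) and -0.99 (SE 0.66) on the log2 scale for flox/N211A against flox/+, flox/flox against flox/+ and flox/N211A against flox/flox. Its partner kinase Cdk6 averaged 12.3 ± 6.67 CPM in flox/N211A (SD, n = 3), 12.4 ± 9.73 in flox/flox (SD, n = 3) and 14.3 ± 10.6 in flox/+ (SD, n = 4).

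Per kilobase of exon, Ccnd1 made up most of the D-type cyclin transcripts in 9 of the 10 libraries. Its share was 85.7%, 89.0% and 88.6% in flox/N211A, 60.2%, 90.0% and 43.4% in flox/flox, and 94.0%, 90.8%, 94.7% and 90.1% in flox/+. Flox/flox replicate 1 differed by a share of Ccnd2 of 24.9%, and flox/flox replicate 3 by a share of Ccnd3 of 51.9%. The flox/flox libraries thus differed among themselves, while the share of Ccnd1 was lower in each flox/N211A library than in each flox/+ library.

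**Figure D3:**
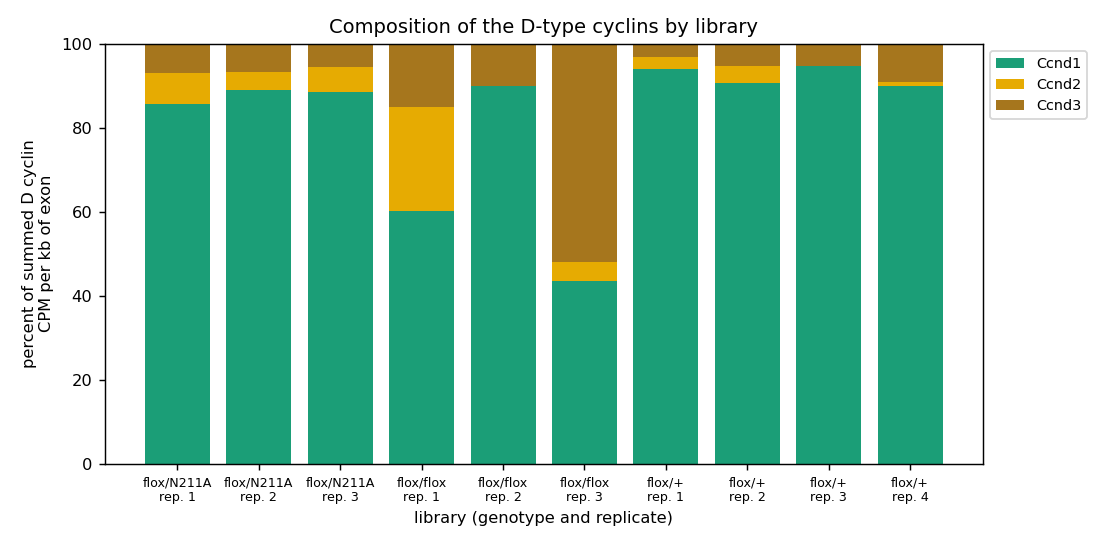
Share of Ccnd1, Ccnd2 and Ccnd3 in their summed CPM per kb of exon (percent, stacked bars) in each library, by genotype. Ccnd1 fills 85.7% to 89.0% of the flox/N211A bars, 43.4% to 90.0% of the flox/flox bars and 90.1% to 94.7% of the flox/+ bars.

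Cyclin E2 and Cdk2, which together push cells from G1 into S phase, were lowest in flox/flox. Cyclin E2 (Ccne2; chromosome 4, 11191351 to 11204779) stood at 22.5, 16.7 and 15.9 CPM in flox/N211A, at 0, 0 and 1.10 CPM in flox/flox, and at 13.5, 9.62, 20.3 and 20.0 CPM in flox/+. The flox/flox libraries lay far below all others, and flox/N211A and flox/+ overlapped. Its log2 fold change came to -5.34 (SE 1.91, edgeR adjusted p = 0.290) in flox/flox against flox/+ and 5.55 (SE 1.96, adjusted p = 0.386) in flox/N211A against flox/flox, and DESeq2 gave adjusted p of 0.000147 and 0.000283. Against flox/+, the value of flox/N211A was 0.21 (SE 1.51, adjusted p = 1). It shares 17.4% of its exon bases with Ints8 on the other strand, which is described below.

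Cdk2 (chromosome 10, 128697939 to 128705031), whose promoter is shown above, stood at 7.41, 0.30 and 3.36 CPM in flox/N211A, at 0.471, 1.56 and 0.0249 CPM in flox/flox, and at 2.02, 14.9, 44.4 and 7.83 CPM in flox/+. All flox/flox libraries lay below all flox/+ libraries, the nearest pair being 1.56 and 2.02 CPM, and flox/N211A overlapped with both. Its log2 fold change came to -4.66 (SE 2.1, edgeR adjusted p = 0.325) in flox/flox against flox/+, -2.23 (SE 1.85, adjusted p = 1) in flox/N211A against flox/+, while flox/N211A against flox/flox gave 2.43 (SE 1.94, adjusted p = 0.648). Cyclin E1 (Ccne1) had 2.1 CPM in flox/N211A replicate 3, no read in flox/flox and at most 0.111 CPM in flox/+. E2f1, the transcription factor that cyclin E and Cdk2 help to release, had no read in flox/N211A, at most 0.0498 CPM in flox/flox and 1.79 CPM in flox/+ replicate 3 alone.

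Summed over Ccne1, Ccne2, Cdk2 and E2f1, the level was 29.9, 17.0 and 21.4 CPM in flox/N211A, 0.471, 1.56 and 1.17 CPM in flox/flox and 15.5, 24.6, 66.5 and 28.0 CPM in flox/+. The 3 flox/flox libraries lay below all others. Of these, replicate 3 was the deepest of the series, and in replicate 2, 34.2% of the tested genes had no read. The part of depth in the low sums was not tested. The summed alveolar type II level was likewise lower in flox/flox than in flox/+, though not for every gene of that list, and its part in this was not tested. Within the libraries with more Xist than Y-linked reads, Ccne2 averaged 0.548 CPM in flox/flox (n = 2) and 16.9 CPM in flox/+ (n = 2), and within the others 0 CPM in flox/flox (n = 1) and 14.8 CPM in flox/+ (n = 2).

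Of the 9 licensing genes, none passed the test, and Cdt1 differed most. Cdt1 (chromosome 8, 122568015 to 122573554), the loader of the MCM helicase whose promoter is shown above, stood at 0.813, 4.49 and 7.08 CPM in flox/N211A, at 0, 0 and 0.0996 CPM in flox/flox, and at 1.42, 2.45, 0 and 5.11 CPM in flox/+. All flox/N211A libraries lay above all flox/flox libraries, and flox/+ replicate 3 had no read. On the log2 scale, Cdt1 differed by 6.45 (SE 2.81, edgeR adjusted p = 0.397) in flox/N211A against flox/flox, -5.58 (SE 2.65, adjusted p = 0.348) in flox/flox against flox/+ and 0.88 (SE 2.06, adjusted p = 1) in flox/N211A against flox/+.

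The helicase subunit Mcm4 stood at 12.6, 5.93 and 18.3 CPM in flox/N211A, at 27.1, 0.0866 and 119 CPM in flox/flox, and at 1.35, 23.0, 33.8 and 17.8 CPM in flox/+. Mcm2, another subunit of the ring, stood at 0.542, 0.360 and 0.561 CPM in flox/N211A, at 5.27, 0 and 0.149 CPM in flox/flox and at 2.62, 2.83, 0 and 28.7 CPM in flox/+. Geminin (Gmnn), the inhibitor of Cdt1, stood at 30.1, 4.07 and 30.8 CPM in flox/N211A, at 0.0941, 49.6 and 1.10 CPM in flox/flox and at 5.09, 7.72, 34.2 and 0 CPM in flox/+. For all 3 genes the genotypes overlapped in every comparison, and single libraries set the means. Mcm2 had a log2 fold change in flox/N211A against flox/+ of -4.11 (SE 2.64, edgeR adjusted p = 1), and without flox/+ replicate 4 it was -1.88. That of Gmnn in flox/flox against flox/+ was 0.53 (SE 1.82, adjusted p = 0.935), and without flox/flox replicate 2 it was -4.22.

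The 6 subunits of the MCM ring act as a complex with 1 copy of each, yet their transcripts did not keep a common order over the libraries. Flox/+ replicate 3 had no read of Mcm2, Mcm3, Mcm5 and Mcm6 and 33.8 CPM of Mcm4. Flox/flox replicate 2 had 6.84 CPM of Mcm3, and no other subunit passed 0.173 CPM there. Mcm7 averaged 11.6 ± 5.05 CPM in flox/N211A (SD, n = 3), 6.27 ± 10.4 in flox/flox (SD, n = 3) and 21.4 ± 16.6 in flox/+ (SD, n = 4). Its transcript aligns over 2157 bases at 97.7% identity with that of Gm5487, so its reads are uncertain. Cdc6, which acts with Cdt1, was read at up to 3.98 CPM in flox/N211A, 0.722 CPM in flox/flox and 0.222 CPM in flox/+ and was not tested. The summed level of the licensing genes was 38.8 to 94.1 CPM in flox/N211A, 46.4 to 144 CPM in flox/flox and 59.8 to 119 CPM in flox/+, which overlap.

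Among the enzymes of nucleotide supply, thymidylate synthase stood out. Tyms (chromosome 5, 30058202 to 30073617), which makes thymidylate for DNA, stood at 8.59, 11.1 and 8.62 CPM in flox/N211A, at 0, 0 and 1.49 CPM in flox/flox, and at 17.1, 14.7, 8.54 and 12.6 CPM in flox/+. The flox/flox libraries lay below all others, and flox/N211A and flox/+ overlapped. Its log2 fold change came to -4.67 (SE 2.07, edgeR adjusted p = 0.323) in flox/flox against flox/+, 4.18 (SE 2.06, adjusted p = 0.435) in flox/N211A against flox/flox, while flox/N211A against flox/+ gave -0.49 (SE 1.71, adjusted p = 1). DESeq2 gave adjusted p of 0.00497 and 0.0316 for the 2 comparisons with flox/flox. Its transcript aligns over 677 bases at 95.6% identity with that of the pseudogene Tyms-ps, and how reads that map to several places were counted is not given.

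Of the other enzymes of this group, Rrm1 and Tk1 did not follow Tyms. The large subunit of ribonucleotide reductase, Rrm1, stood at 5.69, 0.0599 and 3.50 CPM in flox/N211A, at 28.0, 0 and 0.174 CPM in flox/flox and at 24.5, 9.35, 0 and 20.0 CPM in flox/+. Thymidine kinase (Tk1) stood at 3.52, 13.1 and 6.31 CPM in flox/N211A, at 0, 21.3 and 14.2 CPM in flox/flox and at 0.225, 0.435, 8.15 and 6.89 CPM in flox/+. In flox/flox, replicate 1 thus held Rrm1 and no Tk1, and replicates 2 and 3 held Tk1 and at most 0.174 CPM of Rrm1. The small subunit Rrm2 stood at 1.36, 0 and 6.10 CPM in flox/N211A, at 0, 0 and 0.872 CPM in flox/flox and at 0, 3.48, 0 and 1.22 CPM in flox/+, so that flox/flox was low as for Tyms, with overlap between all genotypes. Summed over the 4 enzymes, the level was 19.2 to 24.5 CPM in flox/N211A, 16.7 to 28.0 CPM in flox/flox and 16.7 to 41.9 CPM in flox/+.

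**Figure D4:**
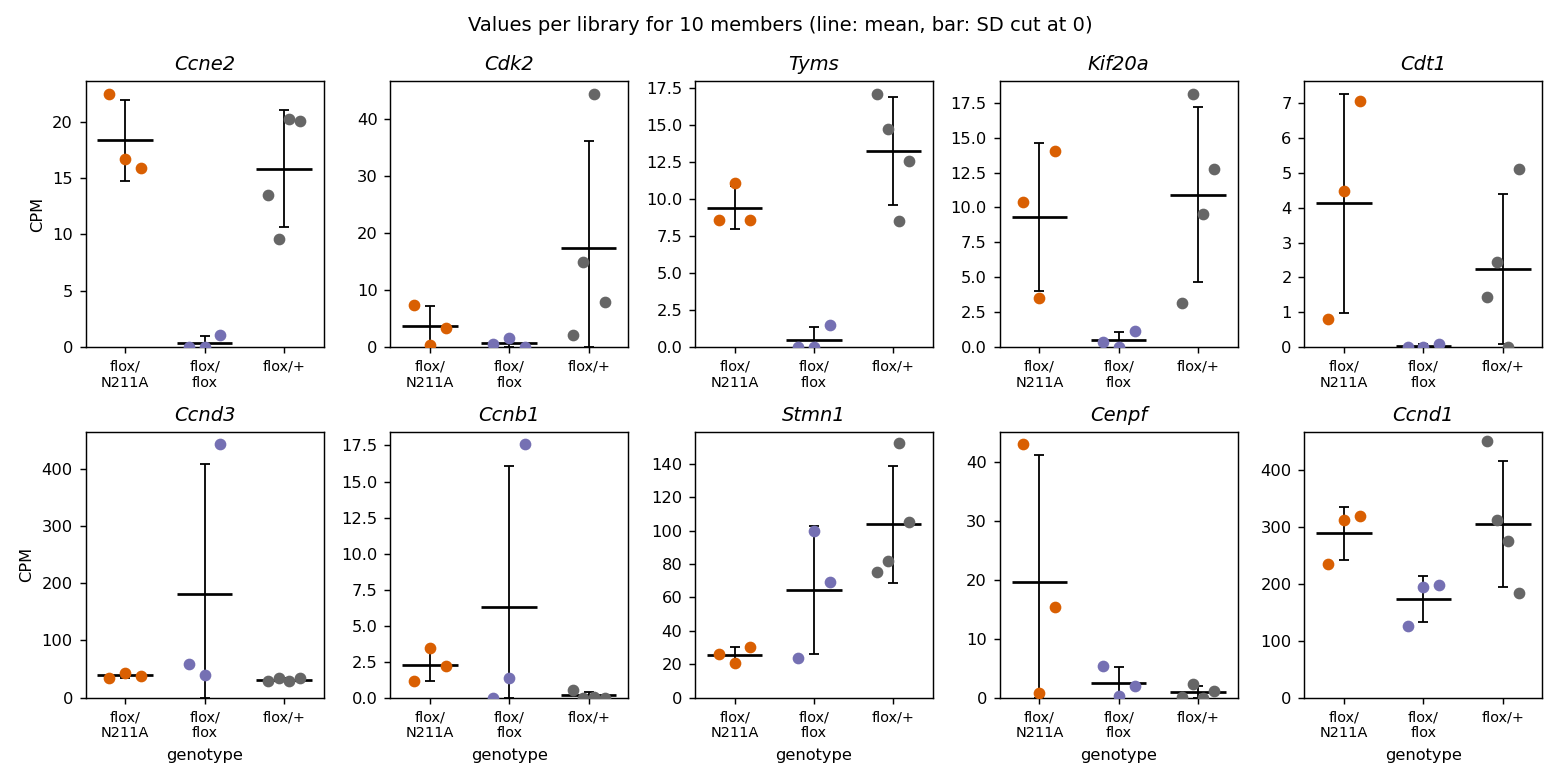
CPM of 10 members in each library (points), with the mean (line) and the SD cut at 0 (bar), for flox/N211A, flox/flox and flox/+. Ccne2 and Tyms are at most 1.49 CPM in all flox/flox libraries, 1 flox/flox library sets the mean of Ccnd3 and of Ccnb1, and Stmn1 is at most 30.3 CPM in all flox/N211A libraries.

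None of the mitotic cyclins and regulators passed the test either. Cyclin A2 (Ccna2), which acts in S phase and G2, stood at 10.6, 26.0 and 17.2 CPM in flox/N211A, at 10.2, 12.5 and 31.8 CPM in flox/flox, and at 14.2, 40.8, 25.6 and 6.89 CPM in flox/+, with overlap throughout and log2 fold changes of at most 0.28 in size (edgeR adjusted p of at least 0.943). Cyclin B1 (Ccnb1), the activator of Cdk1 at the start of mitosis, stood at 1.17, 3.42 and 2.17 CPM in flox/N211A, at 0, 1.39 and 17.6 CPM in flox/flox and at 0.524, 0, 0.0662 and 0 CPM in flox/+. Every flox/N211A library lay above every flox/+ library, while flox/flox replicate 1 had no read. The fold change of Ccnb1 on the log2 scale was 3.89 (SE 2.38, edgeR adjusted p = 1) in flox/N211A against flox/+, while flox/flox against flox/+ gave 5.38 (SE 2.53, adjusted p = 0.346). Without flox/flox replicates 2 and 3 the second value turned to -4.17. The transcript of Ccnb1 aligns over 1287 bases at 99.2% identity with that of Ccnb1-ps.

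Cyclin B2 (Ccnb2) went the other way in flox/flox. It stood at 4.34, 0 and 5.54 CPM in flox/N211A, at 0, 0 and 0.847 CPM in flox/flox and at 2.77, 1.25, 4.83 and 4.39 CPM in flox/+, so that all flox/flox libraries lay below all flox/+ libraries (log2 fold change -3.46, SE 2.49, edgeR adjusted p = 0.550). Cdc20, the activator of the APC/C at anaphase, stood at 0.361, 0.779 and 5.68 CPM in flox/N211A, at 0, 0 and 0.324 CPM in flox/flox and at 6.66, 2.99, 0 and 5.33 CPM in flox/+. All flox/N211A libraries lay above all flox/flox libraries, the nearest pair being 0.361 and 0.324 CPM. Ube2c, the ubiquitin-conjugating enzyme of the APC/C, stood at 0.633, 18.0 and 15.6 CPM in flox/N211A, at 4.24, 0 and 1.17 CPM in flox/flox and at 8.91, 9.46, 0.795 and 0 CPM in flox/+, with overlap throughout.

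The kinases of mitosis were rarely read. Cdk1, the partner of the B cyclins, reached 11.1 CPM in flox/N211A replicate 1 and was at most 1.72 CPM in flox/flox and 6.36 CPM in flox/+. Aurka, which acts at the spindle poles, was at most 1.45 CPM in flox/N211A, 2.07 CPM in flox/flox and 5.66 CPM in flox/+. The checkpoint kinase Bub1 was at most 0.719 CPM in flox/N211A, 2.39 CPM in flox/flox and 7.77 CPM in flox/+. Foxm1, a transcription factor of G2 and M phase genes, was at most 0.701 CPM in flox/N211A, 0.125 CPM in flox/flox and 1.20 CPM in flox/+. Of the 12 mitotic regulators, 8 were tested and 0 passed, with 1 higher (Ccnb1) and 0 lower at an unadjusted p under 0.05 in flox/flox against flox/+ (5.73% and 8.7% of all tested genes) and 0 in either direction in flox/N211A against flox/+ (0.728% and 0.706%).

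In the group of spindle, chromosome and cytokinesis proteins, none of the 13 members passed edgeR's test, in which stathmin in flox/N211A against flox/+ and the motor Kif20a in flox/flox against flox/+ had the smallest p. Stmn1 (chromosome 4, 134468320 to 134473843) stood at 26.2, 20.7 and 30.3 CPM in flox/N211A, at 23.8, 100 and 69.1 CPM in flox/flox, and at 75.1, 82.0, 153 and 105 CPM in flox/+. Every flox/N211A library lay below every flox/+ library, the nearest pair being 30.3 and 75.1 CPM, and flox/flox replicate 1 lay among the flox/N211A libraries. Stmn1 differed on the log2 scale by -2.01 (SE 0.66, edgeR adjusted p = 1) in flox/N211A against flox/+, -0.69 (SE 0.63, adjusted p = 0.662) in flox/flox against flox/+ and -1.32 (SE 0.67, adjusted p = 0.445) in flox/N211A against flox/flox. Leaving out each library in turn, the first value lay between -2.15 and -1.76. Its transcript aligns over 450 bases at 99.8% identity with that of Gm11223, so reads could be split between them or counted for both.

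Kif20a (chromosome 18, 34624613 to 34633277), a motor of the central spindle and cytokinesis, stood at 10.4, 3.54 and 14.0 CPM in flox/N211A, at 0.376, 0 and 1.15 CPM in flox/flox, and at 3.14, 18.2, 9.54 and 12.8 CPM in flox/+. The flox/flox libraries lay below all others. Kif20a differed on the log2 scale by -4.38 (SE 1.98, edgeR adjusted p = 0.327) in flox/flox against flox/+, 4.15 (SE 2.0, adjusted p = 0.427) in flox/N211A against flox/flox, while flox/N211A against flox/+ gave -0.23 (SE 1.65, adjusted p = 1). DESeq2 gave adjusted p of 0.00599 and 0.0233 for the 2 comparisons with flox/flox. Kif23, a motor of the same structure, did not follow it, with 16.6, 24.6 and 39.0 CPM in flox/N211A, 5.84, 125 and 9.69 CPM in flox/flox, and 8.61, 44.9, 53.5 and 29.2 CPM in flox/+. Its value in flox/flox replicate 2 was the highest of all libraries, and without that library the log2 fold change in flox/flox against flox/+ went to -2.12 in place of 0.46.

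Cenpf, a kinetochore protein of G2 and M phase, stood at 43.0, 0.779 and 15.4 CPM in flox/N211A, at 5.36, 0.260 and 2.02 CPM in flox/flox and at 0.150, 2.28, 0 and 1.05 CPM in flox/+. Flox/N211A replicates 1 and 3 lay above all other libraries and replicate 2 lay among flox/+. The log2 fold change in flox/N211A against flox/+ was 4.48 (SE 2.06, edgeR adjusted p = 1), and it was 3.20 without flox/N211A replicate 1. Hmmr, which organizes spindle microtubules, stood at 0, 2.88 and 3.50 CPM in flox/N211A, at most 0.498 CPM in flox/flox and at 1.09 CPM in flox/+ replicate 2, with no read in the other flox/+ libraries (log2 fold change 2.93, SE 2.53, edgeR adjusted p = 1).

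The usual marks of proliferation showed no common direction. Mki67, which coats mitotic chromosomes, stood at 1.45, 0 and 6.03 CPM in flox/N211A, at 29.6, 0 and 0.672 CPM in flox/flox and at 2.25, 11.7, 0 and 0.944 CPM in flox/+. Top2a, which untangles sister chromatids and whose promoter is shown above, stood at 1.08, 0.360 and 28.4 CPM in flox/N211A, at 0.753, 0 and 0.299 CPM in flox/flox and at 6.29, 14.3, 0.0662 and 0.389 CPM in flox/+. Flox/flox replicate 1 thus had the most Mki67 and little Top2a, and flox/N211A replicate 3 the most Top2a. Birc5 (survivin), a chromosomal passenger, averaged 9.63 ± 8.58 CPM in flox/N211A (SD, n = 3), 4.26 ± 3.63 in flox/flox (SD, n = 3) and 4.21 ± 2.93 in flox/+ (SD, n = 4). The other members of this group, Cenpe, Kif11, Tpx2, Prc1 and Nusap1, averaged under 4 CPM in flox/flox and in flox/+, and 7.47 ± 10.8 CPM (Prc1) was the highest of their means in flox/N211A. Summed over both mitotic groups, the level was 124 to 223 CPM in flox/N211A, 81.6 to 246 CPM in flox/flox and 140 to 300 CPM in flox/+, which overlap. Kif23 and Stmn1 made up most of the 246 CPM of flox/flox replicate 2. Without Stmn1, Ccna2, Kif20a and Kif23, the sums were 86.5, 49.2 and 123 CPM in flox/N211A and 41.4, 8.49 and 51.3 CPM in flox/flox. In flox/+ they were 39.2, 82.6, 58.5 and 47.0 CPM, and the genotypes still overlapped.

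Some members share exon bases with a gene on the other strand, and the strand setting of the counting is not given, so their reads cannot be told apart from that gene's. Kif20a shares 29.3% of its exon bases with Cdc23, an APC/C subunit. Cdc23 stood at 10.4, 3.30 and 12.3 CPM in flox/N211A, at 0.659, 0 and 0.374 CPM in flox/flox and at 3.22, 19.2, 6.22 and 23.8 CPM in flox/+, close to Kif20a in most libraries and likewise lowest in flox/flox. Ccnd1 shares 23.4% with LTO1, which stood at 156, 223 and 217 CPM in flox/N211A, at 118, 103 and 54.5 CPM in flox/flox and at 307, 233, 128 and 50.7 CPM in flox/+. Like Ccnd1, LTO1 was higher in every flox/N211A library than in every flox/flox library. Cdk4 shares 19.7% with Tspan31, which stood at 21.1, 48.3 and 43.7 CPM in flox/N211A, at 41.8, 71.8 and 262 CPM in flox/flox and at 39.2, 33.5, 153 and 146 CPM in flox/+. Ccne2 shares 17.4% with Ints8, which stood at 32.4, 19.8 and 23.3 CPM in flox/N211A, at 16.0, 0 and 1.34 CPM in flox/flox and at 27.1, 24.1, 56.6 and 18.3 CPM in flox/+. In flox/flox replicate 1, Ints8 was read at 16.0 CPM and Ccne2 not at all, and in flox/flox replicate 2 both were at 0. Further overlaps were Ube2c with Tnnc2 (22.8%), which had no read in 8 libraries, Ccna2 with Exosc9 (12.5%) and Prc1 with Rccd1 (11.1%).

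**Figure D5:**
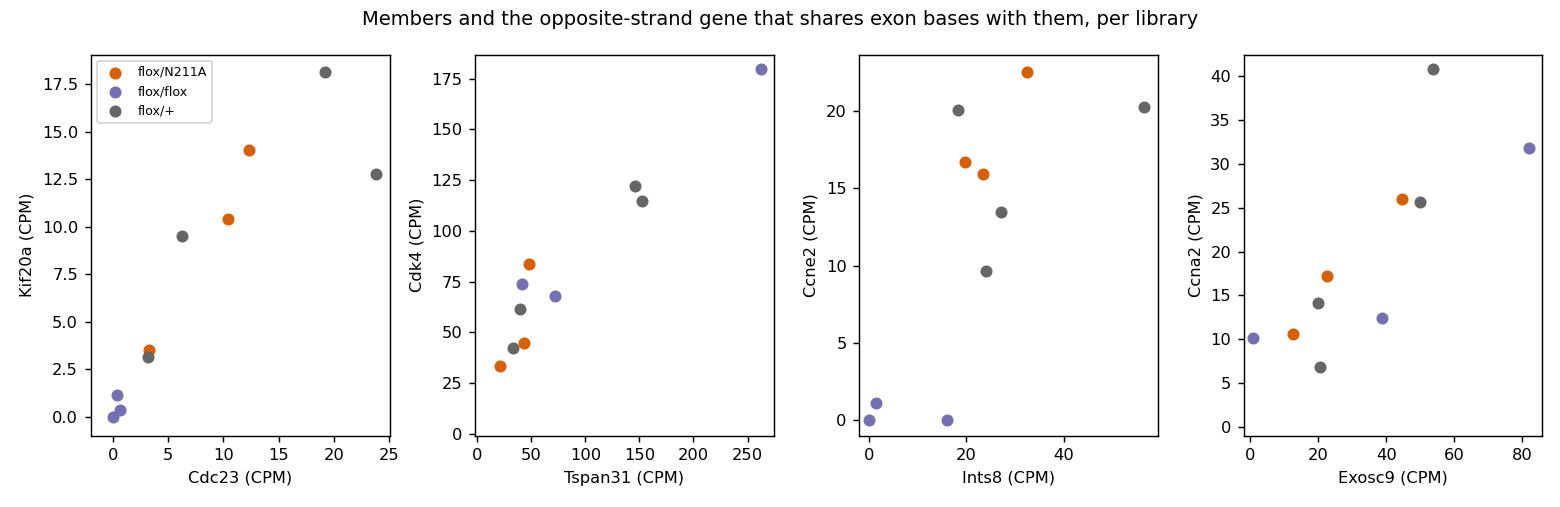
CPM of 4 members (vertical axis) against CPM of the opposite-strand gene that shares exon bases with each (horizontal axis), 1 point per library, by genotype. Kif20a and Cdc23 are both at most 1.15 CPM in the flox/flox libraries, and Cdk4 and Tspan31 are both highest in flox/flox replicate 3, whereas Ccne2 is at 0 in the flox/flox library that has 16.0 CPM of Ints8.

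Other genes of the pathway were read from 7 lists of 157 genes with roles outside the member list, and none passed edgeR's adjusted threshold. The 45 genes of kinetochore, spindle and checkpoint had a median difference of mean log2 CPM of 0.38 in flox/N211A against flox/+, -0.60 in flox/flox against flox/+ and 1.34 in flox/N211A against flox/flox. The 37 genes of origin recognition and the replisome had medians of -0.42, -1.23 and 0.30 in the same order, and the 16 kinases, phosphatases and their partners 0.15, -2.03 and 1.79. The 19 genes of cohesin, condensin and separase had 0.30, -0.07 and 0.66, beside 0.15, -0.62 and 0.85 for all genes tested and 0.05, -0.14 and 0.34 for all genes with a count. Of these genes, 134 were tested. At an unadjusted p under 0.05, flox/N211A against flox/+ had 1 higher and 0 lower (0.728% and 0.706% of all tested genes), flox/flox against flox/+ 6 higher and 7 lower (5.73% and 8.7%), and flox/N211A against flox/flox 5 higher and 3 lower (7.63% and 4.42%), which is near or below those shares.

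Those with the smallest p among genes without overlap are named by rule. The clamp loader subunit Rfc2 stood at 56.8, 68.4 and 47.8 CPM in flox/N211A, at 127, 224 and 246 CPM in flox/flox and at 37.4, 79.1, 88.5 and 51.7 CPM in flox/+, above all other libraries in each flox/flox library (log2 fold change 1.63, SE 0.51, edgeR adjusted p = 0.249 against flox/+). Lin9, of the MuvB complex that binds CHR elements, stood at 9.67, 0 and 2.24 CPM in flox/N211A, at 0, 0 and 0.0747 CPM in flox/flox and at 17.6, 6.09, 1.99 and 3.11 CPM in flox/+. Pola2, of the polymerase alpha and primase complex, was at most 0.149 CPM in flox/flox and at 0.30, 3.42, 38.9 and 6.44 CPM in flox/+, and Wee1, the kinase that holds back Cdk1, stood at 19.6, 27.9 and 8.34 CPM in flox/N211A and at 1.41, 0 and 0.199 CPM in flox/flox. Rbl2, a pocket protein of quiescent cells, stood at 23.8, 13.2 and 29.7 CPM in flox/N211A and at 53.5, 39.2 and 149 CPM in flox/flox (log2 fold change -1.86, SE 0.82, edgeR adjusted p = 0.399). In flox/+ it stood at 27.6, 24.7, 23.9 and 30.1 CPM, below every flox/flox library and overlapping with flox/N211A.

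In flox/N211A against flox/+, the named genes were Pcna, Gins4, Cenph and Nek2. The sliding clamp Pcna stood at 44.8, 57.4 and 60.2 CPM in flox/N211A and at 72.0, 94.6, 119 and 91.0 CPM in flox/+, lower in every flox/N211A library (log2 fold change -0.80, SE 0.54, edgeR adjusted p = 1). Gins4, of the replicative helicase, stood at 16.2, 2.22 and 17.2 CPM in flox/N211A and at 44.8, 27.7, 56.7 and 63.3 CPM in flox/+ (log2 fold change -2.02, SE 1.0, adjusted p = 1). The kinetochore protein Cenph stood at 3.89, 22.7 and 2.94 CPM in flox/N211A and at most 0.544 CPM in flox/+, and the centrosome kinase Nek2 at 36.3, 37.0 and 44.2 CPM in flox/N211A and at 22.3, 10.5, 21.4 and 0.278 CPM in flox/+. Both were higher in every flox/N211A library than in every flox/+ library, and neither passed the test.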

How the data were processed

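RNA was measured in 10 libraries of mouse lung cells, each of some 500 lysed cells, by SMART-Seq2 in a modified form and a tagmentation kit, per the labels' protocols. The deposited values are raw read counts per gene symbol, which the authors made with Trim Galore 0.5.0, HISAT2 2.1.0 and featureCounts 1.6.4 on mm10, per the submitters' processing notes, which also name DESeq2. No source used here states the annotation, the strand setting or how multi-mapping reads were treated. Amplified reads without molecular identifiers are not independent molecules, so limits from counts cover counting error only.

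Genes were kept by edgeR's expression filter on the genotype (13464 of 25277), scaled by TMM and tested with edgeR 4.0.16's quasi-likelihood F test in R 4.3.3, with 1 mean per genotype fitted over all 10 libraries, 3 contrasts and Benjamini-Hochberg adjustment over all genes tested at 0.05. The biological coefficient of variation was 1.24. CPM values use the same scaled totals, and the median of a list is over its genes' differences in mean log2 CPM (prior count 2). limma 3.58.1, DESeq2 1.42.0, other scalings, filters and covariates, and leaving out libraries were the alternatives. The fit was tested on simulated data. Replicate numbers are shared between genotypes, but deviations of same-numbered libraries correlated at -0.065 to 0.098, so the numbers were not taken to pair libraries.

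The members and lists were chosen with earlier results of these data known. Named are members that passed, the 6 with the smallest p in each comparison, the 2 tested members with the highest mean CPM in each role, and, of the other cell cycle genes, the 4 without overlap and with the smallest p in each comparison, plus Apex1. Chosen after the values were seen, and described without a test, are the overlapping gene pairs, the split by Xist and Y-linked reads, the shares among D cyclins, the counts of highest libraries, the plotted members, the printed promoters and any other member given with values. Coordinates and exon lengths are from GENCODE M21 (GRCm38), in which 24418 of the symbols were found, all members among them, and promoters are from RefSeq (GRCm38.p6). All columns of the table were used.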

Additional observations from a re-analysis of the deposited data

Results flagged for a closer look

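In the 4 flox/+ libraries, 1 library stood apart from the other 3 by Dixon's test for 13 of 53 values examined, where chance flags about 1 in 20 groups of evenly spread values. That rate does not hold for values that are mostly 0: in 7 of the 13 the other 3 libraries had no read, so that any read stands apart, and Ccne1 rests on 2 counts. Groups of 3 libraries cannot be examined this way. Most of the 13 are members read in a single flox/+ library. In flox/+ replicate 2, Bub1 had 7.77 CPM (at most 0.167 CPM in the other 3), Prc1 10.4 CPM (at most 0.898), Kif11 3.04 CPM, Nusap1 2.12 CPM, Foxm1 1.20 CPM and Hmmr 1.09 CPM, the last 4 with no read in the other 3. In flox/+ replicate 4, Mcm2 had 28.7 CPM (at most 2.83 CPM in the other 3), Aurkb 13.5 CPM (no read in the others), Tpx2 2.55 CPM (at most 0.15) and Ccne1 0.111 CPM (no read in the others). In flox/+ replicate 3, Bub1b had 52.7 CPM (at most 0.109 CPM in the others) and E2f1 1.79 CPM (no read in the others). In flox/+ replicate 1, Ccnb1 had 0.524 CPM (at most 0.0662 CPM in the others). Thus 6 of the 13 values, all of genes of mitosis, came from flox/+ replicate 2. The part of any cause in this was not tested.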

How the results depend on the processing

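For flox/flox against flox/+, the genes called, 0 with edgeR, numbered 1030 with DESeq2, 196 with no low-count filter, 1 with the replicate block, 2 at an adjusted p under 0.1, 49 without flox/flox replicates 2 and 3, and 0 to 399 leaving out each library (399, 4 and 11 without flox/flox replicate 1, 2 or 3, and 1 without flox/+ replicate 2). The members called there were 5 with DESeq2 and 0 to 1 leaving out each library. For flox/N211A against flox/+, genes called numbered 17 with DESeq2 and 13 with no filter. For flox/N211A against flox/flox they numbered 667 with DESeq2 (3 members), 96 with no filter, 16 without flox/flox replicates 2 and 3, and 0 to 244 leaving out each library (244, 2 and 6 without flox/flox replicate 1, 2 or 3). The cause of these differences was not tested.

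Of 767 values for named members under the alternatives, 725 kept their direction and their side of the threshold, 9 passed it (8 with DESeq2) and 33 changed sign. In flox/flox against flox/+, Cdk4 was -0.23 without flox/flox replicate 3 and -0.21 without replicates 2 and 3, Mcm4 -0.0022 with voom and -0.48 without replicate 3, and Ccnb1 -4.17 without replicates 2 and 3. Gmnn was -1.08 with voom, -1.28 with the replicate block, -1.40 with genes detected as a term, -0.92 with the Xist and Y-linked class, -4.22 without replicate 2 and -6.84 without replicates 2 and 3. Kif23 under the same settings was -1.05, -0.21, -0.75, -0.33, -2.12 and -2.55. Rrm1 was 1.03 with genes detected, 0.063 without replicate 2, 0.057 without replicate 3, and 1.06 without both, and Ccna2 0.18 leaving out flox/+ replicate 2 and 0.035 leaving out flox/flox replicate 1. Leaving out each library in turn, the values there lay between -0.23 and 0.59 for Cdk4, -0.48 and 1.96 for Mcm4, -4.22 and 1.99 for Gmnn, -7.00 and 0.063 for Rrm1, -0.91 and 0.18 for Ccna2, and -2.12 and 1.00 for Kif23. In flox/N211A against flox/+, Ccnd1 was 0.17 without flox/+ replicate 1 and 0.05 without flox/N211A replicate 1, Ccne2 -0.73 with genes detected and -0.56 with the class, Mcm4 0.13 with voom, Ccna2 0.23 without flox/+ replicate 2, and Kif23 0.021 with the replicate block, 0.11 with genes detected and 0.39 with the class. Leaving out each library there, Ccnd1 lay between -0.26 and 0.17 and Ccna2 between -0.65 and 0.23. In flox/N211A against flox/flox, Stmn1 was 0.12 without flox/flox replicates 2 and 3. No label says what a replicate number marks, and not every library correlated best with its own number (9 of 18 combinations). The members' medians already hold all 47 members, while those of all genes, -0.62 and 0.85 over genes tested in the comparisons of flox/flox with flox/+ and of flox/N211A with flox/flox, were -0.14 and 0.34 without the filter. Low reads limit the rare members.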
